A study of Mus musculus with 6 samples.

Results

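The cathepsins are proteases that work mainly in the acid lumen of the lysosome, and 10 of their genes are described here in shin muscle (tibialis anterior) of mice that lacked the histone variant H2A.Z in muscle fibres. They are Ctsa, Ctsb, Ctsc, Ctsd, Ctsf, Ctsh, Ctsk, Ctsl, Ctss and Ctsz, taken by exact gene name from a deposited table of 28510 genes. All 10 were found, and all 10 had enough reads to be tested. The KO group was 3 samples, H2A-Z.1-/- and also H2A-Z.2-/-, positive for HSA Cre. The WT group was 3 samples, H2A-Z.1flox/flox and also H2A-Z.2 flox/flox, labelled wild type for HSA Cre. All 6 samples were C57BL/6 mice at 12 months of age. The HSA promoter, of the human skeletal actin gene, is active in muscle fibres, so that cells between the fibres would keep their H2A.Z genes. The samples were whole muscle, and from them fewer cells of a type and less RNA per cell cannot be told apart.

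Cathepsins are made as inactive precursors, carried to the lysosome by mannose 6-phosphate receptors, and activated there by cleavage. Most are cysteine proteases, held in check by inhibitors called cystatins, while cathepsin D is an aspartic and cathepsin A a serine protease. In muscle fibres they degrade proteins and organelles delivered by autophagy. In macrophages and other antigen-presenting cells they are abundant, digest engulfed material and prepare antigens for MHC class II molecules.

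Total counts ran from 62318774 to 102919416 in the KO libraries and from 35456883 to 88477775 in the WT libraries, and the mitochondrial share of counts from 21.7% to 32.1% and from 19.9% to 25.5%. Levels are CPM, each gene's read count relative to the whole library, scaled by the TMM method, and a gene is said to have risen or fallen in KO where the adjusted p of edgeR's quasi-likelihood test was below 0.05. Both targeted genes fell. H2afz stood at 5.16, 4.14 and 4.51 CPM in KO replicates 1 to 3, against 18.5, 15.9 and 15.2 CPM in WT. H2afv stood at 4.07, 3.77 and 4.57 CPM in KO, against 19.1, 16.0 and 20.7 CPM in WT. The 10 markers of muscle fibres, the labelled tissue, summed to 155200 to 197700 CPM in KO and 230900 to 249900 CPM in WT.

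Of the 10 cathepsin genes, 5 rose in KO muscle, 1 fell and 4 did not pass the test. Among all 16628 genes tested, 25.9% passed in either direction, 13.5% risen and 12.4% fallen. The median log2 fold change of the 10 genes was 0.38, against 0.01 over the whole set tested. The genes that rose were Ctss, Ctsh, Ctsk, Ctsc and Ctsl, and the gene that fell was Ctsd, which had the highest level of the family. In the authors' deposited table all 6 had passed its adjusted p of 0.05 in the same direction, and the other 4 had not. The calls differed in how far they rested on single libraries. Those of Ctss and Ctsh held under each of 16 alternatives, while those of Ctsk, Ctsc, Ctsl and Ctsd were each lost when any of at least 4 of the 6 libraries was left out.

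**Figure D1:**
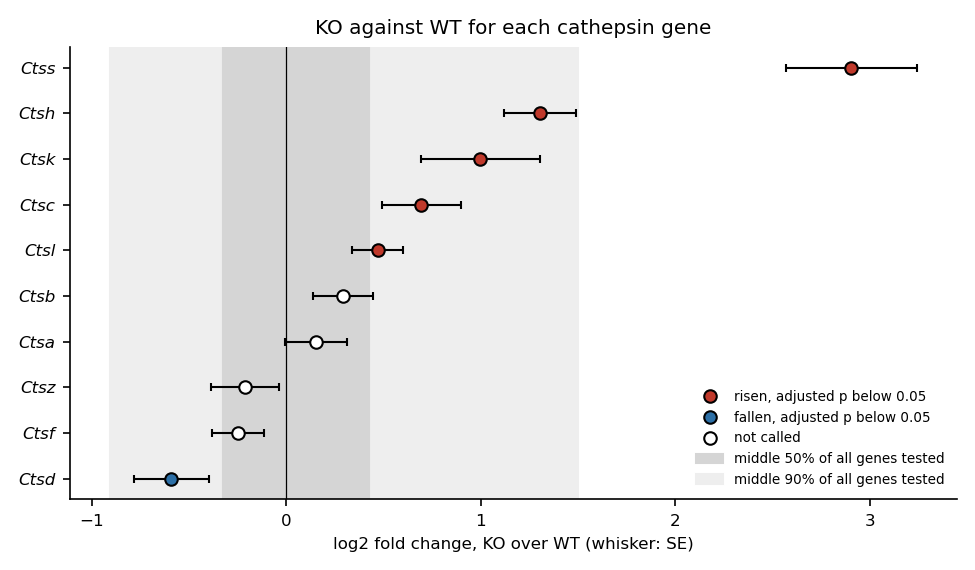
The log2 fold change of KO over WT for each of the 10 cathepsin genes (x axis), with whiskers of 1 SE from edgeR and the middle 50% and 90% of all 16628 genes tested as shaded bands. Ctss, at 2.91, lies outside the wider band, and the other 9 genes, from -0.59 to 1.31, lie within it.

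The endopeptidases of the cysteine class, which cut within protein chains, rose in 3 of 4 cases, against 13.5% of all genes tested. A class of 4 genes is described here and carries no test. Ctss encodes cathepsin S, the protease of antigen-presenting cells that removes the invariant chain from MHC class II molecules. It stood at 44.2, 34.2 and 23.9 CPM in KO replicates 1 to 3, against 6.72, 4.45 and 2.42 CPM in WT replicates 1 to 3. The lowest KO library thus lay above the highest WT library, and both groups spread widely. The rise was 7.50-fold (log2 fold change 2.91 with an SE of 0.34, edgeR adjusted p = 0.000264), and 1.12% of all genes tested had a larger log2 fold change. Across the 16 alternatives the log2 fold change ran from 2.60 to 3.33, with a highest adjusted p of 0.00262.

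Ctsk, which encodes the collagen-degrading cathepsin K of osteoclasts, is the next protein-coding gene to Ctss on chromosome 3 in the RefSeq annotation of GRCm38.p6. It stood at 7.46, 10.3 and 4.21 CPM in KO, against 4.67, 3.56 and 2.71 CPM in WT. The groups overlapped, since KO replicate 3 lay below WT replicate 1. The rise was 2.00-fold (log2 fold change 1.00 with an SE of 0.31, edgeR adjusted p = 0.0346). The call was lost without KO replicate 1, KO replicate 2, WT replicate 2 or WT replicate 3, with adjusted p of 0.0774 to 0.133, and in limma-voom, at adjusted p = 0.0682.

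Both neighbours are shown by the 250 bases before their RefSeq start, because they lie side by side and rose by different amounts. The windows are chr3:95526536-95526785 for Ctss and chr3:95498960-95499209 for Ctsk, both on the plus strand of GRCm38.p6, and capitals mark GAGGAA on either strand, a sequence bound by the myeloid factor PU.1 and other ETS proteins.
Ctss: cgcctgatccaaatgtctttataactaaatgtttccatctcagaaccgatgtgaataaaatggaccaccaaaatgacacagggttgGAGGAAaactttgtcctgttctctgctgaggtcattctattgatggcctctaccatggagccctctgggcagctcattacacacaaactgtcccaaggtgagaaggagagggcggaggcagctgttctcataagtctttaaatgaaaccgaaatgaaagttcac
Ctsk: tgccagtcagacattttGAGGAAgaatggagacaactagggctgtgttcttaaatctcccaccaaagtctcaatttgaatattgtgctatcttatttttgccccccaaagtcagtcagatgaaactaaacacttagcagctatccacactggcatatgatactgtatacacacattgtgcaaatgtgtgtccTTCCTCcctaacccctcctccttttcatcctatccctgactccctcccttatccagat
The Ctss window held GAGGAA once and the Ctsk window held it at 2 places. Of 9 windows found for 8 of the 10 genes, 3 held it, those of Ctsc, Ctsk and Ctss, and 23.3% of all 32851 windows of that length in the RefSeq table did. No window was found for Ctsb and Ctsh. The AP-1 sequence TGANTCA was in 0 of the 9 windows and in 6.75% of all windows.

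Ctsl, which encodes cathepsin L, a broad endopeptidase known from wasting muscle, had the tightest levels in KO. It stood at 90.7, 91.1 and 90.7 CPM in KO, against 62.0, 67.5 and 67.3 CPM in WT. All KO libraries lay above all WT libraries. The rise was 1.38-fold (log2 fold change 0.47 with an SE of 0.13, edgeR adjusted p = 0.0239). The call was lost without KO replicate 1 or any single WT library, with adjusted p of 0.0534 to 0.134 and a log2 fold change of 0.43 to 0.48. In the GENCODE annotation of GRCm38, exons of Ctsl overlap an antisense gene and a processed pseudogene, neither of which has a row in the deposited table. Ctsf, which encodes cathepsin F, did not pass. It stood at 13.9, 14.96 and 15.4 CPM in KO, against 18.7, 15.8 and 17.97 CPM in WT. All KO libraries lay below all WT libraries, at a log2 fold change of -0.25 (SE 0.13, edgeR adjusted p = 0.203).

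The exopeptidases of the cysteine class, which trim chain ends, rose in 2 of 4 cases, against 13.5% of all genes tested. Ctsh encodes the aminopeptidase cathepsin H. It stood at 13.7, 16.6 and 10.4 CPM in KO, against 5.54, 5.24 and 5.597 CPM in WT. The WT libraries lay close together and all KO libraries above them. The rise was 2.47-fold (log2 fold change 1.31 with an SE of 0.18, edgeR adjusted p = 0.000834), and it ran from 1.16 to 1.52 on the log2 scale across the 16 alternatives, with a highest adjusted p of 0.00717.

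Ctsc encodes cathepsin C, a dipeptidyl peptidase that activates the serine proteases of immune cell granules. It stood at 57.8, 61.8 and 38.9 CPM in KO, against 38.1, 34.0 and 25.8 CPM in WT. KO replicate 3 lay just above WT replicate 1. The rise was 1.62-fold (log2 fold change 0.69 with an SE of 0.20, edgeR adjusted p = 0.0278). The call was lost without KO replicate 1, KO replicate 2, WT replicate 2 or WT replicate 3, with adjusted p of 0.0609 to 0.108.

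Ctsb, which encodes cathepsin B, an abundant enzyme that also cuts within chains, did not pass although the groups did not overlap. It stood at 199.9, 233.9 and 200.3 CPM in KO, against 192.8, 157.5 and 167.4 CPM in WT (log2 fold change 0.29 with an SE of 0.16, edgeR adjusted p = 0.193). It passed with library size alone as the scaling (0.50, adjusted p = 0.0332), under which the median over all tested genes stood at 0.22. Ctsz, which encodes the carboxypeptidase cathepsin Z, stood at 32.5, 21.2 and 22.5 CPM in KO, against 32.4, 27.0 and 29.0 CPM in WT. KO replicate 1 lay above all WT libraries and the other KO libraries below them, at a log2 fold change of -0.21 (SE 0.18, edgeR adjusted p = 0.412), and its sign turned with library size alone. Groups did not overlap for 7 of the 10 cathepsin genes, 5 higher and 2 lower in KO, and for 42.6% of all genes tested, 21.6% higher and 21.0% lower in KO.

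**Figure D2:**
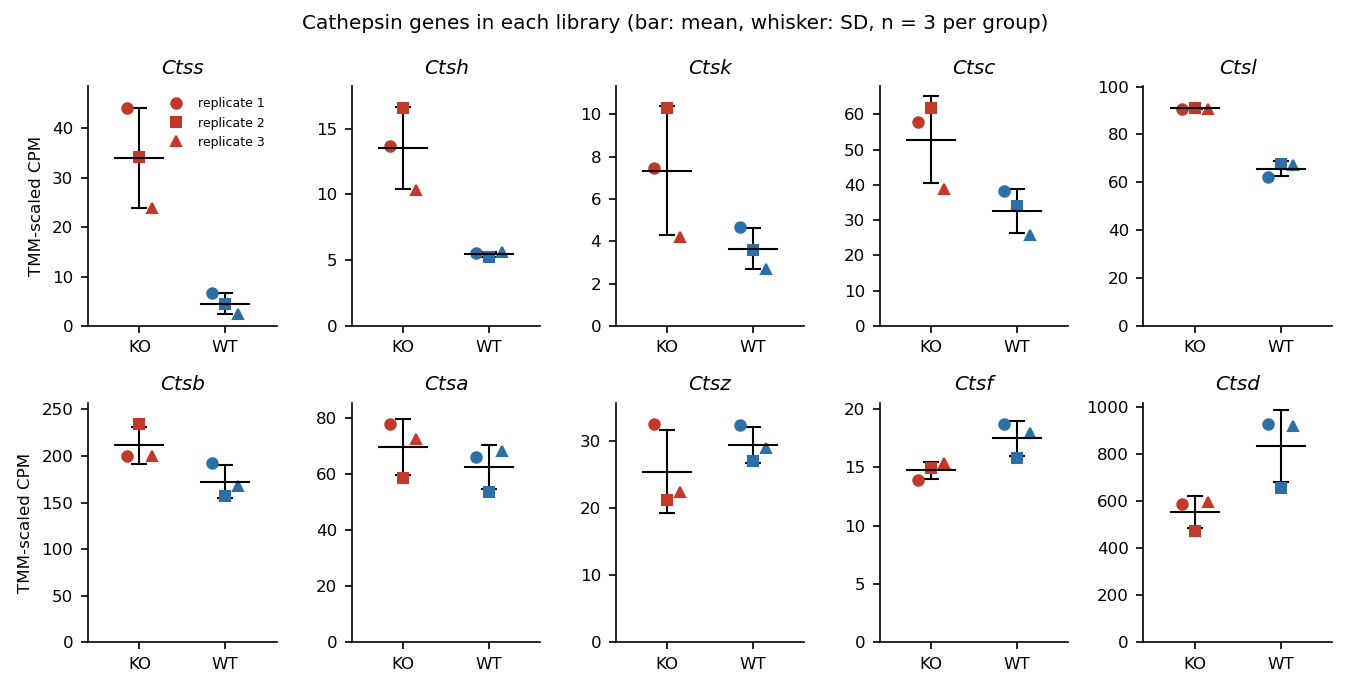
TMM-scaled CPM (y axis, from 0, a scale of its own in each panel) of the 10 cathepsin genes in the 3 KO and 3 WT libraries, with the mean and SD of each group, ordered by log2 fold change. Ctss stands at 23.9 to 44.2 CPM in KO and 2.42 to 6.72 CPM in WT, and Ctsd at 475 to 596 CPM in KO and 656 to 927 CPM in WT.

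The genes of the aspartic and the serine cathepsin did not rise. Ctsd encodes cathepsin D, the main aspartic protease of lysosomes, and stood at 588, 475 and 596 CPM in KO, against 927, 656 and 919 CPM in WT. Replicate 2 was the lowest library of each group, and the groups did not overlap. The level in KO was 0.663 times that in WT (log2 fold change -0.59 with an SE of 0.19, edgeR adjusted p = 0.0447). This call was lost without any single library other than WT replicate 2 (adjusted p of 0.0727 to 0.170), with a stricter expression filter (adjusted p = 0.0515) and with library size alone (-0.37, adjusted p = 0.164). Exons of Ctsd overlap those of a further gene on the same strand, Gm49369, in the GENCODE annotation of GRCm38, which has no row in the deposited table. The summed level of the fibre markers, given above, was lower in every KO library than in any WT library. Much of that sum was 1 gene, Ttn, at 81890 to 107400 CPM in KO and 120600 to 132600 CPM in WT. Of the 10 markers 6 were lower in KO without overlap, against 21.0% of all genes tested. The groups overlapped for Myh1, Mb, Pvalb and Myh2, with log2 fold changes of -0.02, -0.12, 0.06 and 0.46. Of the 10 markers 1 fell, Tnnt3, the fast troponin T gene (log2 fold change -0.70 with an SE of 0.22, edgeR adjusted p = 0.0402), while DESeq2 called 5 and limma-voom 2. The count was 0 in edgeR without KO replicate 1 or 2 or WT replicate 1 or 3, and 3 without KO replicate 3, and 1 fibre marker rose without KO replicate 2. The part of the fibre markers in the Ctsd result was not tested.

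Ctsa encodes cathepsin A, a serine carboxypeptidase that also protects the lysosomal enzymes Glb1 and Neu1. It stood at 77.6, 58.3 and 72.3 CPM in KO, against 66.0, 53.4 and 68.0 CPM in WT. The groups overlapped, and the log2 fold change of 0.15 (SE 0.16) did not pass, at adjusted p = 0.528 by edgeR. Exons of Ctsa overlap those of Neurl2 and Pltp on the opposite strand in GRCm38, exons of Ctsb those of Fdft1, and exons of Ctsz those of Nelfcd. Reads of such partners could not be told apart where the counting did not use strand, a setting not given in the sources.

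Ctsd and Ctsa had the motif TCACGTG before their start, which is the core of the sites bound by TFEB and its relatives, the factors known to drive lysosomal genes. The windows are chr7:142387828-142388077 on the minus strand for Ctsd and chr2:164833523-164833772 on the plus strand for the second of 2 Ctsa starts, in GRCm38.p6, with CACGTG and TCACGTG on either strand in capitals.
Ctsd: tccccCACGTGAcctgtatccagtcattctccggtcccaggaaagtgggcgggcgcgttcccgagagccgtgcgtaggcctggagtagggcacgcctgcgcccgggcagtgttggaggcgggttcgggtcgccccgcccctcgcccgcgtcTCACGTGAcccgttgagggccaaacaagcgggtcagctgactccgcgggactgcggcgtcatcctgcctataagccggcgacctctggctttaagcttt
Ctsa: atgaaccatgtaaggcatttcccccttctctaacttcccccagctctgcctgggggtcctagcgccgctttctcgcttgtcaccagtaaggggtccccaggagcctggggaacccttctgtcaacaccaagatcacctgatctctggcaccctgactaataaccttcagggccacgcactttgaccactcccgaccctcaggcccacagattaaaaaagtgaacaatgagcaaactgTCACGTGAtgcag
TCACGTG, which contains CACGTG, was in 2 of the 9 cathepsin windows and in 3.13% of all 32851 windows. CACGTG was in 4 of the 9, those of Ctsa, Ctsd, Ctsf and Ctsl, and in 6.02% of all windows. Among these 4 genes Ctsl rose, Ctsd fell and Ctsa and Ctsf did not pass.

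Levels of different genes were compared per kb of gene length on the deposited normalized signal. Ctsd came first in both groups, at 25750 ± 3203 per kb in KO and 38840 ± 7120 per kb in WT (SD, n = 3 each), followed in both by Ctsa, Ctsl and Ctsb. In KO the order went on with Ctsc, Ctss, Ctsz, Ctsh, Ctsf and Ctsk. In WT it went on with Ctsz, Ctsc, Ctsf, Ctsh, Ctss and Ctsk. Neighbours whose libraries overlapped were each next pair from Ctsb down to Ctsh in KO, and Ctsz with Ctsc and Ctss with Ctsk in WT. Ctss thus ranked 6 of 10 in KO and 9 of 10 in WT.

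Ctsd made up 52.1%, 48.9% and 56.3% of the summed per-kb level of the 10 genes in KO replicates 1 to 3, against 69.8%, 65.3% and 70.9% in WT. Its share was lower in every KO library than in any WT library (exact permutation test over samples, two-sided p = 0.1, the smallest that 3 against 3 can give). The share of Ctss was 4.42%, 3.98% and 2.55% in KO, against 0.571%, 0.500% and 0.211% in WT (exact permutation p = 0.1). Shares of a common sum depend on each other, so both differences restate the changes in level given above and are no separate test. The shares of Ctsa and Ctsb, which were not called, also had an exact permutation p of 0.1. The 9 genes other than Ctsd summed to 25480, 23030 and 21310 per kb in KO, against 18680, 16250 and 17540 per kb in WT. The sum over all 10 genes was 45090 to 53200 per kb in KO and 46880 to 61840 per kb in WT, and these ranges overlapped.

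The order rested in part on the lengths the authors had used. Their signal implied a length of 0.667 kb for Ctsa, 1.48 kb for Ctsl, 1.35 kb for Ctsc and 0.732 kb for Ctsh, while the longest coding transcripts in GENCODE are 3.65, 6.17, 3.22 and 1.62 kb. With those transcripts Ctsd still came first, with 62.1% of the sum in KO and 77.4% in WT, Ctsb came second in both groups, Ctss ranked 3 in KO and 9 in WT, and Ctsa ranked 4 in both groups. Ctsl then ranked 7 in KO and 5 in WT, with 3.53% of the sum in KO and 2.15% in WT, against 8.95% and 5.72% with the authors' lengths. The share of Ctss was 6.00% in KO and 0.670% in WT with those transcripts.

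**Figure D3:**
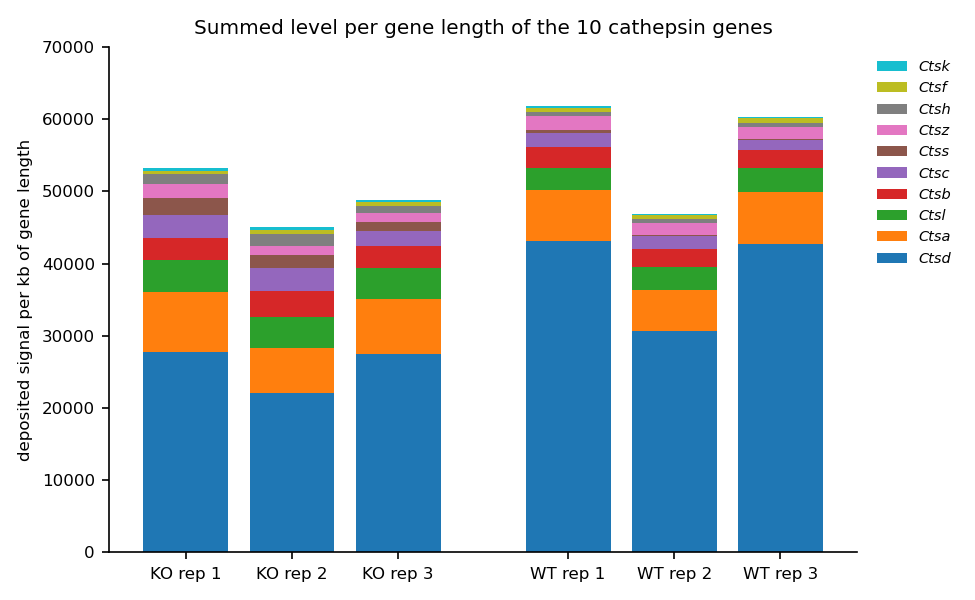
The deposited signal per kb of gene length (y axis), of the 10 cathepsin genes stacked for each KO and WT library. The Ctsd block is 48.9% to 56.3% of the stack in KO and 65.3% to 70.9% in WT, and the Ctss block is 2.55% to 4.42% in KO and 0.211% to 0.571% in WT.

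Of 11 further genes of the family that were found, Ctso, Ctse and Cts8 were tested. In edgeR 0 passed and 0 had an unadjusted p under 0.05, and limma-voom called 0. Over all genes 13.5% rose and 12.4% fell, and 3 genes are too few to set beside those shares. DESeq2 called 1 of 4 tested, and so did edgeR without KO replicate 2, WT replicate 1 or WT replicate 2. There a gene beyond these 3 had entered the test, and the called gene is not identified here. With no expression filter 1 of 11 was called. Ctso, a broadly expressed member, stood at 7.88, 9.41 and 5.93 CPM in KO, against 6.88, 6.73 and 9.04 CPM in WT (log2 fold change 0.03 with an SE of 0.20, edgeR adjusted p = 0.929). Ctsw, a cathepsin of killer lymphocytes, fell short of the expression filter, with 62, 5 and 24 counts in KO, against 2, 1 and 0 counts in WT. Ctsg, a granule protease of myeloid cells, had at most 4 counts in a library. The mainly placental genes Cts3, Cts7, Ctsj, Ctsq, Ctsr and Ctsll3 had at most 8.

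Of 5 inhibitors of cathepsins tested, 0 rose by edgeR, whether by adjusted or unadjusted p, in DESeq2 or in limma-voom, and 1 fell. With 5 genes these counts do not stand apart from the 13.5% risen and 12.4% fallen over all genes. The fallen gene was Ctla2a, an inhibitor of cathepsin L-like proteases. It stood at 6.68, 6.53 and 5.71 CPM in KO, against 8.60, 10.3 and 9.04 CPM in WT (log2 fold change -0.56 with an SE of 0.15, edgeR adjusted p = 0.0211). The call was lost without KO replicate 1 or 3 or WT replicate 2 or 3, and with library size alone as the scaling. Cst3, the gene of the secreted inhibitor cystatin C, stood at 348, 275 and 311 CPM in KO, against 289, 240 and 275 CPM in WT (log2 fold change 0.22 with an SE of 0.16, edgeR adjusted p = 0.360). Cstb, the gene of the intracellular inhibitor cystatin B, had a log2 fold change of 0.17 (SE 0.22, edgeR adjusted p = 0.611).

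Of 12 genes that sort and process lysosomal enzymes, 2 rose and 2 fell, 16.7% each way, near the 13.5% and 12.4% over all genes. Lgmn encodes legumain, which cleaves several procathepsins. It stood at 57.7, 58.0 and 43.8 CPM in KO, against 31.6, 26.8 and 20.2 CPM in WT (log2 fold change 1.02 with an SE of 0.19, edgeR adjusted p = 0.00324). Grn, the progranulin gene, rose by log2 0.80 (SE 0.19), and Cln6 and Cln8, membrane protein genes of the endoplasmic reticulum that serve enzyme export to the lysosome, had log2 fold changes of -0.74 (SE 0.15) and -0.46 (SE 0.14). The mannose 6-phosphate receptor genes M6pr and Igf2r stood at -0.04 (SE 0.13) and 0.25 (SE 0.18), and neither passed. Without WT replicate 3, 1 gene of this list rose, and without KO replicate 1 or 3 or any single WT library 1 fell.

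Of 33 other hydrolases of the lysosome, 6 rose and 4 fell, at a median log2 fold change of 0.15. The risen share of 18.2% lay near the 13.5% over all genes, and with library size alone 12 rose and 2 fell. Among those that rose were Man2b1, a mannosidase gene, at 0.80 (SE 0.17), Lipa, the acid lipase gene, at 0.79 (SE 0.18) and Acp5, the tartrate-resistant acid phosphatase gene of osteoclasts and macrophages, at 1.42 (SE 0.41). Among those that fell were Aga, which cleaves sugars from asparagine, at -0.93 (SE 0.16), Tpp1, a tripeptidyl peptidase gene, at -0.68 (SE 0.14), and Smpd1, the acid sphingomyelinase gene, at -0.63 (SE 0.17). Risen hydrolases numbered 2 without KO replicate 1 and 3 without WT replicate 3, and fallen hydrolases 2 without WT replicate 1 or 3.

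Of 18 genes of lysosomal membrane proteins and lipid carriers, 3 rose and 3 fell, 16.7% each way and again near the share over all genes. With library size alone 5 rose and 1 fell. Slc15a3 and Slc11a1, transporter genes of macrophage lysosomes, rose by log2 1.69 (SE 0.41) and 0.89 (SE 0.22). Npc1 and Abca2, lipid transporter genes, had log2 fold changes of -0.81 (SE 0.17) and -0.60 (SE 0.17). Lamp1, the main coat protein gene of the lysosome, stood at 285, 289 and 302 CPM in KO, against 371, 310 and 398 CPM in WT (log2 fold change -0.30 with an SE of 0.16, edgeR adjusted p = 0.194). Subunits of the vacuolar proton pump, which acidifies the lysosome, numbered 18, of which 2 rose and 2 fell (11.1% each way, against 13.5% and 12.4% of all genes), at a median of -0.02. Its macrophage and osteoclast form Atp6v0d2 rose by log2 2.29 (SE 0.53), with only 75 to 102 counts per KO library and 3 to 17 per WT library. Atp6v0d2 reached the test only through its KO libraries, so its call is a description. The accessory subunit of the pump, Atp6ap2, rose by 0.53 (SE 0.15), and Atp6v0b and Atp6v0a2 had log2 fold changes of -0.56 (SE 0.16) and -0.41 (SE 0.14). Without WT replicate 3, 0 membrane protein genes rose in edgeR, and without KO replicate 1, 1 rose. Without WT replicate 1 or 2, 1 membrane protein gene fell. Risen pump genes numbered 1 without KO replicate 1 or any single WT library. Fallen pump genes numbered 0 in edgeR without KO replicate 2 or 3 or WT replicate 1 or 3, and 1 without KO replicate 1.

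Of 10 regulators of lysosomal genes, 0 rose and 0 fell in edgeR, against 13.5% and 12.4% of all genes. At those shares 10 genes would give few calls, so 0 says little about the regulators. In edgeR 1 regulator had an unadjusted p under 0.05, and neither DESeq2 nor limma-voom called any. Tfeb stood at 56.6, 43.1 and 53.3 CPM in KO, against 47.1, 37.7 and 55.7 CPM in WT (log2 fold change 0.12 with an SE of 0.17, edgeR adjusted p = 0.647). Its relatives Tfe3 and Mitf had log2 fold changes of 0.38 (SE 0.15, edgeR adjusted p = 0.0801) and -0.26 (SE 0.16, adjusted p = 0.251). Without KO replicate 3, 1 regulator rose.

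**Figure D4:**
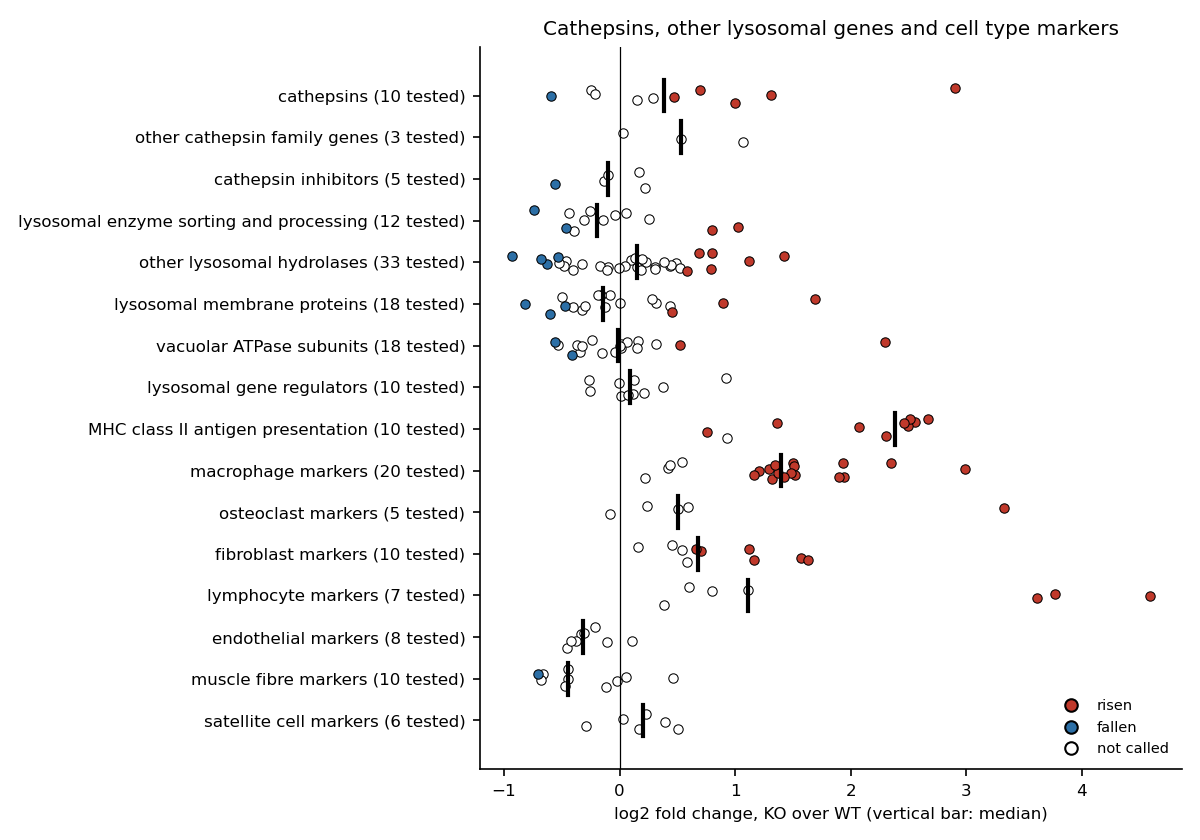
The log2 fold change of KO over WT (x axis) for every tested gene of the cathepsins, of 7 related lists and of 8 further lists, 1 of MHC class II presentation and 7 of cell type markers, with a vertical bar at each median. Lysosomal lists lie on both sides of 0. Of 10 genes of MHC class II presentation 9 rose, and of 20 macrophage markers 16, against 13.5% of all genes tested.

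Antigen presentation genes, whose products meet cathepsin S in the endosome, rose with Ctss. Of 10 tested, 9 rose, at a median log2 fold change of 2.38. Cd74, the gene of the invariant chain that cathepsin S degrades, stood at 187, 83.3 and 72.8 CPM in KO, against 22.5, 17.9 and 17.9 CPM in WT (log2 fold change 2.56 with an SE of 0.32, edgeR adjusted p = 0.000415). H2-Aa and H2-Eb1, MHC class II chain genes, rose by log2 2.67 (SE 0.32) and 2.46 (SE 0.34), and H2-DMb1, a peptide-loading factor gene, by 2.51 (SE 0.37). KO replicate 1 was the highest library of each of these 4 genes and of Ctss.

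Macrophage markers rose in 16 of 20 cases (80.0%, against 13.5% of all genes tested), at a median of 1.39. Their summed level was 526, 473 and 334 CPM in KO, against 225, 211 and 102 CPM in WT. Of the 20, 0 were without counts in all libraries of a group. Csf1r, the receptor gene that defines the lineage, stood at 41.6, 45.6 and 34.0 CPM in KO, against 22.1, 20.2 and 11.9 CPM in WT (log2 fold change 1.16 with an SE of 0.22, edgeR adjusted p = 0.00372). Cd68, a lysosomal membrane protein gene of macrophages, rose by log2 1.51 (SE 0.36). Mpeg1, a pore protein gene of macrophages, rose by 2.99 (SE 0.35). Tyrobp, a signalling adaptor gene of myeloid cells, rose by 1.90 (SE 0.28). The 4 that did not pass were Cd163, Mrc1, Itgam and Mertk, with log2 fold changes of 0.22 to 0.54.

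Cathepsin counts were also set against these markers within each library, a ratio chosen after the data were seen. Ctss had 8.41, 7.23 and 7.16 counts per 100 counts of the 20 markers in KO, against 2.98, 2.11 and 2.38 in WT (exact permutation p = 0.1, the smallest possible). The groups did not overlap without the abundant lysozyme genes Lyz1 and Lyz2, or per count of Csf1r or Cd68. Per 100 counts of Mpeg1, the groups overlapped, at 72.4 to 91.1 in KO and 67.8 to 95.1 in WT. Ctsh had 2.60, 3.50 and 3.10 counts per 100 marker counts in KO, against 2.46, 2.48 and 5.49 in WT, and Ctsk 1.42, 2.18 and 1.26 in KO, against 2.07, 1.69 and 2.66 in WT. For both, the groups overlapped on this measure. Per 100 counts of Mpeg1 both were lower in KO without overlap, Ctsh at 22.4 to 39.4 in KO and 68.1 to 156 in WT, and Ctsk at 12.2 to 23.6 in KO and 57.4 to 76.2 in WT. Per count of Csf1r or Cd68, or of the markers without Lyz1 and Lyz2, the groups overlapped for both Ctsh and Ctsk. Ctsh per 100 counts of Pdgfra, a fibroblast marker, was higher in KO without overlap, at 18.8 to 21.6 in KO and 10.4 to 17.8 in WT. Per 100 counts of Dcn, another fibroblast marker, Ctsh overlapped, at 2.10 to 3.28 in KO and 2.09 to 2.93 in WT. The summed markers were higher in every KO library than in any WT library. A gene that rose less than they did thus has a lower ratio in KO, and a gene that rose more, as Ctss did, a higher ratio. Either ratio restates the gene's fold change and is no separate test. The other 7 cathepsin genes were lower in KO per 100 counts of the 20 markers, without overlap (exact permutation p = 0.1 each). Among them were Ctsc, at 11.0, 13.1 and 11.6 in KO, against 16.9, 16.1 and 25.2 in WT, and Ctsl, at 17.3, 19.3 and 27.1 in KO, against 27.5, 32.0 and 66.0 in WT. The part that macrophage RNA had in the cathepsin results was not tested further.

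Fibroblast markers rose in 6 of 10 cases (60.0%, against 13.5% of all genes tested), at a median of 0.68. Their summed level was 1823, 1918 and 1082 CPM in KO, against 1132, 1019 and 755 CPM in WT. Dcn, the decorin gene, rose by log2 1.16 (SE 0.30), Postn, the periostin gene, by 1.63 (SE 0.25) and Pdgfra, a receptor gene of fibroblasts, by 0.66 (SE 0.22). Col1a1, a collagen gene and a substrate of cathepsin K as protein, had a log2 fold change of 0.58 (SE 0.29, edgeR adjusted p = 0.162). Risen fibroblast markers numbered 3 without KO replicate 2 and 2 without WT replicate 3. Ctsk had 1.79, 1.30 and 1.33 counts per 100 counts of Dcn in KO, against 1.76, 1.59 and 1.42 in WT, and the groups overlapped (exact permutation p = 0.6). The part of fibroblast RNA in the Ctsk result was not tested further.

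Cathepsin K is best known from osteoclasts, and of 5 osteoclast markers tested 1 passed, Dcstamp, a fusion protein gene of osteoclasts and macrophages. It had 85, 31 and 34 counts in KO, against 7, 1 and 2 counts in WT, so it reached the test only through its KO libraries, and its passing is no support for the list. With the stricter expression filter 0 osteoclast markers were called in edgeR, and without KO replicate 3, 2 were. Tnfrsf11a, the receptor gene for the osteoclast signal RANKL, had 541, 261 and 327 counts in KO, against 239, 103 and 158 counts in WT, and did not pass. Itgb3 had 147 to 314 counts in KO and 83 to 161 in WT, and Ocstamp 83 to 151 in KO and 51 to 120 in WT, and neither passed. Calcr had 14 to 22 counts in KO and 8 or 9 in WT, and Oscar 4 to 15 in KO and 2 to 10 in WT. Lymphocyte markers summed to at most 3.92 CPM in a KO library and at most 1.41 CPM in a WT library, and 3 of 7 tested passed, Cd4, Cd3g and Nkg7. Cd4 had 100, 22 and 37 counts in KO, against 3, 1 and 0 in WT, and the 3 genes reached the test only through their KO libraries, so that their count is a description. With the stricter filter 0 lymphocyte markers were called in edgeR. Endothelial markers had 0 of 8 called in edgeR, while 4 had an unadjusted p under 0.05, DESeq2 called 1 and limma-voom 0, and 2 fell without KO replicate 3. Satellite cell markers had 0 of 6 called in edgeR, and 0 had an unadjusted p under 0.05. Neither DESeq2 nor limma-voom called any satellite cell marker, and 1 rose in edgeR without KO replicate 2 or 3. Over all genes tested 13.5% rose and 12.4% fell, so 0 calls in lists this short say little.

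Library by library, each cathepsin gene was compared with 174 genes of the other lists by the root mean square difference of log2 CPM, each gene centred on its own mean over the 6 libraries. Nearest to Ctss were Mpeg1 (0.171) and Dcstamp (0.298), which had only 7, 1 and 2 counts in WT. Nearest to Ctsh were H2-DMb2 of the class II loading complex (0.222) and Cd14, a macrophage marker (0.228). Ctsk lay nearest to the fibroblast markers Dcn (0.184) and Pdgfra (0.257), and Ctsc to Scpep1, a lysosomal carboxypeptidase gene (0.104), and Pdgfra (0.137). Ctsd lay nearest to Smpd1 (0.0543) and Fuca1 (0.118), Ctsf to Hgsnat (0.0566) and Lamp1 (0.0652), Ctsb to Glb1 (0.0961) and Atp6v1a (0.0965), and Ctsz to Gnptab (0.133) and Naglu (0.142). Ctsa lay nearest to Cst3 (0.0687) and Tfeb (0.0693), and Ctsl to Lamp2 (0.125) and Tfe3 (0.126). These distances describe 6 libraries and carry no test. The difference between KO and WT is part of each distance, so genes with like fold changes tend to lie near each other.

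**Figure D5:**
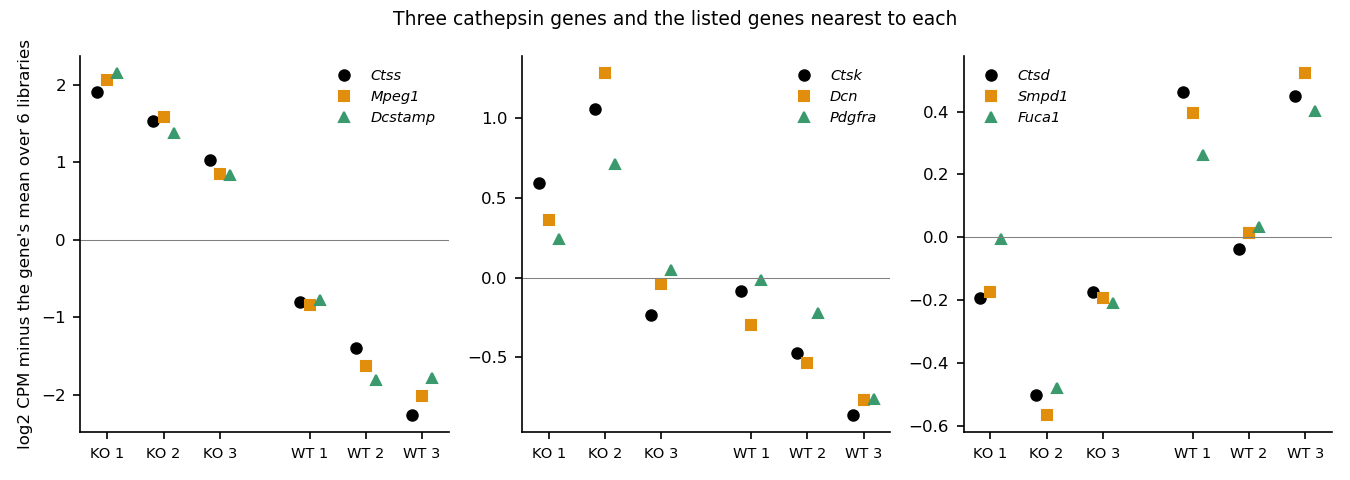
Log2 CPM minus each gene's mean over the 6 libraries (y axis) in the KO and WT libraries (x axis) for Ctss, Ctsk and Ctsd, each with the 2 listed genes nearest to it. Dcstamp, shown with Ctss, had only 7, 1 and 2 counts in WT. Ctss and Mpeg1 are highest in KO replicate 1, at 1.91 and 2.06, Ctsk and Dcn in KO replicate 2, at 1.06 and 1.28, and Ctsd and Smpd1 are lowest in KO replicate 2, at -0.50 and -0.57.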

How the data were processed

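Total RNA of frozen tibialis anterior was sequenced in 6 samples, 3 KO and 3 WT, grouped by their titles. Per the labels' protocols, libraries were made with a stranded kit that depletes ribosomal RNA. Named in the submitters' processing notes, without roles, are the genome build mm9, HTSeq 0.6.1, TopHat2 2.0.14, Bowtie and bcl2fastq 2.17.1.14. The authors deposited raw read counts per gene, a length-normalized signal per kb, and their own log2 fold change with p-value and adjusted p-value, per the file headers. The sources do not name the tool behind them.

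Counts were fitted with edgeR 4.0.16 in R 4.3.3 (TMM, filterByExpr with a minimum count of 10 and a total of 15, quasi-likelihood F test), with Benjamini-Hochberg adjustment over 16628 genes. The SE was the log2 fold change divided by the square root of F. The length behind the deposited signal was obtained from counts and DESeq2 1.42.0 size factors. Alternatives were RLE size factors, library size alone, other filters, DESeq2, limma-voom (limma 3.58.1), robust dispersion, a replicate block, mitochondrial genes left out, and libraries left out. The comparison of gene lengths was added after seeing the data. The members and lists were chosen with earlier results of these data known. Named genes are all members, up to 4 of each other list with the lowest p, and a fixed set of reference genes. Oscar, Ocstamp, Ctsw, Ctsg, the placental family genes, Igf2r, M6pr and the macrophage markers that did not pass were named after their values were seen. The labels do not say that samples came from separate animals, so p-values cover only the spread among the 6 samples, which may be technical. The fits were tested on simulated data. Figures were drawn with matplotlib 3.10.9. Ratios to markers were chosen after seeing the data.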

Additional observations from a re-analysis of the deposited data

How the results depend on the processing

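For the 10 cathepsin genes, 133 of 160 combinations of gene and alternative kept direction and side of the threshold, 24 kept direction and lost the call, 1 gained it and 2 turned sign. With 1 library left out, 2 to 5 cathepsin genes rose and 0 to 1 fell in edgeR (5 and 1 in the full fit), and over all genes 1391 to 2321 rose and 1168 to 2189 fell. In these fits the log2 fold change of Ctsc ran from 0.55 to 0.90, of Ctsd from -0.75 to -0.48, of Ctsk from 0.70 to 1.31 and of Ctsl from 0.43 to 0.50. With library size alone, 3418 genes rose and 1030 fell, 76.8% of calls risen against 52.2% with TMM. There 6 cathepsin genes rose and 0 fell, Ctsb passed at 0.50, Ctsd no longer did at -0.37, and Ctsz turned to 0.015. Ctsd also lost its call with the stricter filter, at -0.53, where 0 cathepsin genes fell in edgeR, and Ctsk in limma-voom, at 0.90. Without both WT replicate 2 and KO replicate 1, 1113 genes rose and 977 fell, 2 cathepsin genes rose and 0 fell, Ctsc, Ctsd, Ctsk and Ctsl were not called at 0.65, -0.79, 0.96 and 0.49, and Ctsa turned to -0.0392. DESeq2 called 5 risen and 1 fallen. The cause of these shifts was not tested, other than fewer samples. Deviations of same-numbered KO and WT libraries from their group means correlated at 0.0604, 0.0154 and 0.0632. Those of differently numbered libraries correlated at -0.0782 to 0.0246. Values this small, from 3 libraries per group, cannot settle whether the numbers pair samples. With the replicate block 2457 genes rose and 2236 fell, and 5 cathepsin genes rose and 1 fell.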
